A study of Homo sapiens with 27 samples.

Results

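22Rv1 and LNCaP, a pair of prostate cancer cell lines of unrelated origin, were compared with each other in the absence of any knockdown. The comparison used the 6 libraries of cells infected with lentivirus encoding the non-silencing CTRL sh hairpin, 3 of 22Rv1 and 3 of LNCaP, out of 27 libraries in the series. The series as a whole was made to study knockdown of CPSF1, a subunit of the complex that recognizes polyadenylation sites, in these lines and in LNCaP95. Libraries were chosen by their labels, and the comparison was chosen with earlier results of these data known. LNCaP cells are hormone-sensitive and came from a lymph node metastasis, whereas 22Rv1 cells are hormone-insensitive and came from a xenograft that relapsed after castration. Cells of both groups carried the integrated control vector, had been selected with puromycin, and were then kept for 72 h, from 500000 seeded cells, in RPMI medium with 10% serum, which contains androgens. Each group is a single cell line, so a difference between the groups belongs to these lines and not to hormone sensitivity as such. The study calls the 3 libraries of a group biological replicates of infected cells, and the p-values below measure only the spread between them.

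Androgens drive the luminal programme of the prostate, together with the transcription factors FOXA1 and HOXB13. Their best-known targets are secreted kallikreins such as prostate-specific antigen, encoded by KLK3. Tumours under androgen deprivation can keep this programme active, or lose dependence on it and take on features of neurons, of gut or of stem cells, and cell lines such as these are the usual models of those states.

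Gene counts summed to 9599566 to 12167674 per library, mitochondrial genes took 1.75 to 2.09% of them, and the biological coefficient of variation was 2.42%. Of 20268 protein-coding genes in the table, 12558 lay above 2 CPM (counts scaled to a common library total) in all 3 libraries of at least 1 line and were tested, and 10800 of these lay above 2 CPM in all 6. At an adjusted p-value below 0.05 in edgeR's quasi-likelihood test, 5522 genes (44% of those tested) were higher in 22Rv1 cells and 5322 (42.4%) were lower. With so many calls, a further limit of 2-fold was used to describe gene groups, which 2081 genes (16.6%) passed as higher and 1756 (14%) as lower. Among genes above 2 CPM in all 6 libraries the same limit was passed by 1008 genes (9.33%) as higher and 1198 (11.1%) as lower. A gene below 2 CPM in 1 line was tested only because it was above it in the other and so was likely to differ. Counts over tested members of a gene list are therefore partly set by the filter, and the counts over members above 2 CPM in all 6 libraries are given beside them. The median log2 difference of all tested genes was 0.016, so values below are close to differences from the typical gene. Levels are normalized CPM, which are not divided by gene length, and differences are log2 of 22Rv1 over LNCaP with the standard error of the fit. Where a pair of levels is given for a gene, the 22Rv1 mean of 3 libraries comes before the LNCaP mean, and a value after ± beside a level is the SD (n = 3). For genes above 2 CPM in all 6 libraries the median SD was 3.87% of the mean in 22Rv1 and 4.12% in LNCaP.

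The pioneer factors FOXA1 and HOXB13 differed little, whereas several nuclear receptors were low in 1 of the lines. FOXA1 (477 against 534 CPM) and HOXB13 (415 against 595 CPM) were within 2-fold of each other in the pair of lines. NR3C1, which encodes the glucocorticoid receptor, was read at 23.8, 23.4 and 25.7 CPM in the 22Rv1 libraries and 0.758, 0.338 and 0.355 CPM in the LNCaP libraries, and its log2 difference was 5.64 ± 0.19 (adjusted p = 1.1e-26). NR2F1, an orphan nuclear receptor of neural crest and dormant tumour cells, stood at 62.8, 61.3 and 58.9 CPM in the 22Rv1 libraries and 0.379, 0.507 and 0.799 CPM in the LNCaP libraries. GATA3, a luminal pioneer factor of the mammary gland, gave 36.3, 36.5 and 32.3 CPM in 22Rv1 and no count in any LNCaP library, while its relative GATA2 was lower in 22Rv1 (181 against 336 CPM). PPARG, the adipocyte receptor, showed the reverse at 0.163, 0.0904 and 0 CPM in the 22Rv1 libraries and 7.67, 6.76 and 5.95 CPM in the LNCaP libraries. The groups did not overlap for any of these genes, which was also so for 5538 higher and 5364 lower genes of the 12558 tested. Among 20 tested receptors and cofactors, 5 were higher in 22Rv1 by more than 2-fold and 2 were lower, and the coactivator NCOA1 (51.3 against 126 CPM) was the other member lower by that limit. Of the 16 above 2 CPM in all 6 libraries, 2 were higher and 1 lower, where 9.33% and 11.1% of all such genes were. ESR1, ESR2 and PGR, the oestrogen and progesterone receptors, did not reach the 2 CPM filter in either line.

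Genes induced by androgen did not move as a block, although more were lower in 22Rv1 than higher. KLK3, at chr19:51358171-51364020 in hg19, was measured at 41.2, 36.8 and 41.9 CPM in the 22Rv1 libraries and 1076, 1152 and 1118 CPM in the LNCaP libraries, a log2 difference of -4.80 ± 0.045 (adjusted p = 8.5e-45). All 3 22Rv1 libraries thus lay far below all LNCaP libraries. TMPRSS2, the membrane serine protease whose promoter is fused to ETS genes in many prostate tumours, was read at 45.0, 48.8 and 47.2 CPM in the 22Rv1 libraries and 607, 636 and 619.8 CPM in the LNCaP libraries (log2 difference -3.72 ± 0.041). The other kallikrein of the prostate secretion, KLK2, was lower at 98.6 against 298 CPM, and KLK4 was higher at 253 against 153 CPM. Also lower were TRPM8, a cold-sensing ion channel (0.0813, 0 and 0 CPM against 30.0, 32.5 and 33.4), the transporter ABCC4 (13.8 against 474 CPM), the secreted protease ADAMTS1 (23.8 against 806 CPM), the retinaldehyde dehydrogenase ALDH1A3 (0.482 against 98.8 CPM), sorbitol dehydrogenase SORD (93.2 against 614 CPM) and NDRG1 (113 against 419 CPM). In the other direction stood FKBP5, a co-chaperone of steroid receptors, at 573, 600.2 and 589 CPM in the 22Rv1 libraries and 127, 131 and 139 CPM in the LNCaP libraries (log2 difference 2.15 ± 0.036). ELL2, an elongation factor, was also higher at 457, 475 and 479 CPM in the 22Rv1 libraries and 47.9, 49.9 and 49.5 CPM in the LNCaP libraries, as were PMEPA1 (502 against 69.0 CPM), ZBTB10 (841 against 104 CPM) and HPGD, which degrades prostaglandins (224 against 7.45 CPM). In all, 12 of the 29 tested members were lower by more than 2-fold and 5 were higher, and the list's median log2 difference was -0.57. Of the 26 above 2 CPM in all 6 libraries, 9 were lower and 5 higher. FKBP5, SGK1 (0.884 against 5.17 CPM) and TSC22D3 (40.8 against 80.9 CPM) also respond to glucocorticoids, and these 3 did not move the same way.

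KLK3 and FKBP5 are shown because they are classical androgen-induced genes that differed in opposite directions. Their RefSeq promoter windows (GRCh38.p14, 250 bases before to 50 after the start farthest upstream) each hold 1 copy of AGAACA, a hexamer of the glucocorticoid response element, which was searched on both strands and is in capitals below. It starts 170 bases before the KLK3 start and at the FKBP5 start itself, and 14.8% of all 27305 promoters of this length hold it. Among tested genes with a promoter the share is 8.63%. Of the 20 androgen-induced genes with a promoter 3 (15%) hold it, KLK3, FKBP5 and PMEPA1.
KLK3, chr19:50854665-50854964, + strand: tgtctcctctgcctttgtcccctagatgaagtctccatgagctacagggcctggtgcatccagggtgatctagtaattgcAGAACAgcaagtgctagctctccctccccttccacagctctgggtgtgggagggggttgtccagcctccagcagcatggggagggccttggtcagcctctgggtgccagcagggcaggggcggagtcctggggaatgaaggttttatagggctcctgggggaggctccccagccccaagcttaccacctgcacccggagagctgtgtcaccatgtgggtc
FKBP5, chr6:35728534-35728833, - strand: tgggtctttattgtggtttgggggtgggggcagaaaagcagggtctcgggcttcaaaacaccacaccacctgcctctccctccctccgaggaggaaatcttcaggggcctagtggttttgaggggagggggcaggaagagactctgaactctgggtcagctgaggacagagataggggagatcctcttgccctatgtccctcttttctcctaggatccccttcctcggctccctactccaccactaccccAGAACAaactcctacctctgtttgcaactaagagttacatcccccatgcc
Promoters were found for 20 of the 30 androgen-induced genes, too few to compare their share with that of other genes. They were found for 77.4% of the genes higher in 22Rv1 by more than 2-fold and for 80.2% of the lower genes. The hexamer was in 145 of 1611 promoters of the higher genes and 122 of 1408 of the lower genes. It was in 891 of 10327 promoters of all tested genes. These shares lay close together, and no test of them was run.

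**Figure D1:**
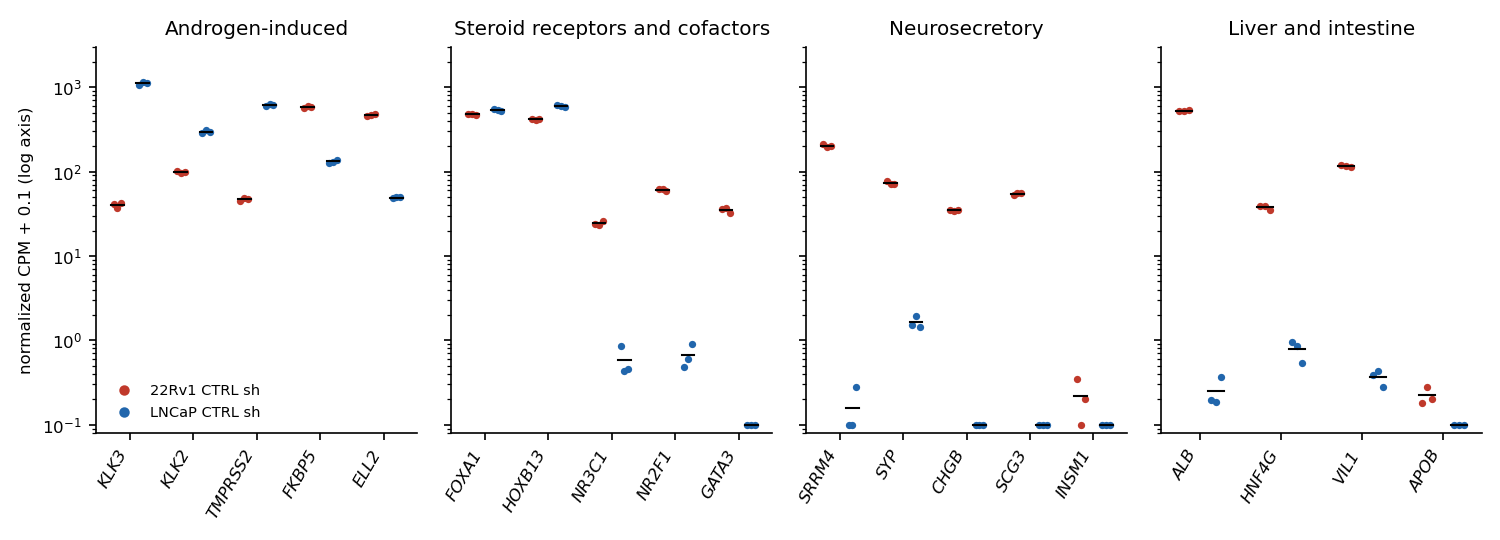
Normalized CPM (log axis, after adding 0.1) of 19 genes in each library, with 22Rv1 in red and LNCaP in blue, and black bars at the mean of 3 libraries. The FOXA1 levels lie side by side, KLK3, KLK2 and TMPRSS2 are lower in 22Rv1, and points at 0.1 are libraries with no count.

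Enzymes that make and remove androgens differed in both directions. Of 16 tested genes of androgen synthesis and conversion, 6 were higher in 22Rv1 by more than 2-fold and 4 lower. Only 6 were above 2 CPM in all 6 libraries, of which 1 was higher and 0 lower by that limit. The others were tested through the line in which they were high. The 3 aldo-keto reductases that reduce steroids were higher in 22Rv1, with AKR1C3, which makes testosterone from androstenedione, at 56.8, 64.1 and 63.6 CPM in the 22Rv1 libraries and 1.99, 1.27 and 1.86 CPM in the LNCaP libraries (log2 difference 5.17 ± 0.12). AKR1C2 (41.4 against 1.13 CPM) and AKR1C1 (15.3 against 0.713 CPM) followed it, and their near-identical sequences mean that reads may have been split between them. HSD17B11, which oxidizes androgens, was higher (88.1 against 12.2 CPM), and SULT2B1, a steroid sulfotransferase, was lower (0.378 against 14.6 CPM). CYP11A1, which starts steroid synthesis from cholesterol, had no count in 22Rv1 and 4.64, 3.55 and 5.59 CPM in LNCaP. CYP17A1, HSD3B1 and HSD3B2 were not above 2 CPM in either line. Of the UGT2B glucuronidation enzymes, which inactivate androgens for excretion, UGT2B17 was read at 0.976, 1.08 and 0.727 CPM in the 22Rv1 libraries and 342, 330.0 and 321 CPM in the LNCaP libraries, a log2 difference of -8.44 ± 0.082 (adjusted p = 2.3e-44). UGT2B11 (3.29 against 148 CPM), UGT2B28 (0.593 against 23.6 CPM), UGT2B15 (86.1 against 325 CPM) and UGT2B10 (14.9 against 40.9 CPM) were lower as well, so that 5 of 8 tested members of the list were lower by more than 2-fold, and 3 of the 5 above 2 CPM in all 6 libraries. UGT2B4 was higher (5.54 against 1.53 CPM), and the members are close paralogs whose reads could be exchanged.

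Luminal markers were expressed at like levels in both lines, whereas several genes of neurosecretory vesicles were measured in 22Rv1 and were at or near 0 in LNCaP. All 15 luminal markers were tested, their median log2 difference was -0.17, and their summed level was 4527 to 4556 CPM in 22Rv1 and 4880 to 4950.0 CPM in LNCaP. KRT8 (443 against 422 CPM), KRT18 (313 against 359 CPM) and EPCAM (98.2 against 111 CPM) were nearly level, KRT19 was the exception on the higher side (195 ± 8.26 CPM in 22Rv1 against 6.06 ± 0.412 CPM in LNCaP), and MSMB, a secreted protein of the prostate, on the lower (0.982 against 3.96 CPM). Of 10 basal markers DST and LAMB3 were tested, both were higher in 22Rv1, DST by more than 2-fold, and the summed level of the list was 91.2 to 98.7 CPM in 22Rv1 and 27.2 to 31.8 CPM in LNCaP, whereas basal keratins and TP63 did not reach the filter. Of 20 neuroendocrine markers 12 were tested, of which 11 were higher in 22Rv1 by more than 2-fold and 1, the Notch ligand DLL3, was lower (1.49 against 12.2 CPM). Only SYT4 and ENO2 were above 2 CPM in all 6 libraries, and so were expressed in LNCaP too. Both were higher in 22Rv1 by more than 2-fold, with a median log2 difference of 1.04. The other 10 were tested through the line in which they were high, so their count supports no statement on the list. SRRM4, a neuronal splicing factor, was measured at 209.8, 198 and 199 CPM in the 22Rv1 libraries and 0, 0 and 0.178 CPM in the LNCaP libraries. SYP, which encodes synaptophysin of secretory vesicles, gave 78.3, 71.9 and 71.6 CPM in the 22Rv1 libraries and 1.42, 1.86 and 1.33 CPM in the LNCaP libraries (log2 difference 5.57 ± 0.11). The granins SCG3 and CHGB, cargo of dense-core vesicles, reached 53.1, 55.5 and 55.3 CPM and 35.2, 33.6 and 34.8 CPM in 22Rv1 with no count in LNCaP, and SNAP25, which drives vesicle fusion, stood at 20.7 against 0.0563 CPM. CHGA was low even where present (6.06 against 0.0316 CPM). The transcription factors INSM1 (0.116 against 0 CPM), NEUROD1 (0.0301 against 0 CPM) and FOXA2 (0.164 against 0 CPM) were at or near 0 in both lines. The summed level of the list, which includes SYT4 and ENO2, was 1199 to 1207 CPM in 22Rv1 and 402 to 408 CPM in LNCaP.

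Mesenchymal markers were split between the lines. FN1, which encodes fibronectin of the extracellular matrix, was read at 93.8, 101 and 92.6 CPM in the 22Rv1 libraries and 1168, 1217 and 1291 CPM in the LNCaP libraries (log2 difference -3.68 ± 0.042). SNAI1, a repressor of E-cadherin, was lower in 22Rv1 (0.387 against 8.14 CPM), while its relative SNAI2 (12.3 against 1.45 CPM) and TWIST1 (11.8 against 3.98 CPM) were higher. CDH2, the neural cadherin, gave 18.4, 17.0 and 16.6 CPM in 22Rv1 and no count in LNCaP, and E-cadherin CDH1 was lower in 22Rv1 (413 against 769 CPM). Of 10 tested members 4 were higher by more than 2-fold and 5 lower, and of the 5 above 2 CPM in all 6 libraries 1 was higher and 3 lower. The leukocyte gene PTPRC was at 0.0301 against 0 CPM, and of the 10 immune and endothelial markers only VWF and CD68 were tested, both lower in 22Rv1. VWF, a clotting factor of endothelium, was at 0.0888 against 26.1 CPM.

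Some genes of liver and intestine were measured in 22Rv1 and were close to 0 in LNCaP. This list was drawn up after the largest differences had been seen, so its count is a description. Of 37 genes 18 were tested, and 15 of these were higher in 22Rv1 by more than 2-fold and 3 lower. Only 3 were above 2 CPM in all 6 libraries, 2 of them higher and 1 lower, and the others were tested through the line in which they were high. ALB, the serum albumin gene at chr4:74262831-74287129, was measured at 516, 524 and 544 CPM in the 22Rv1 libraries and 0.0947, 0.0845 and 0.266 CPM in the LNCaP libraries (log2 difference 11.69 ± 0.10). HNF4G, a nuclear receptor of gut epithelium, was at 39.5, 39.0 and 34.5 CPM in the 22Rv1 libraries and 0.853, 0.761 and 0.444 CPM in the LNCaP libraries. VIL1, which bundles actin in microvilli, was at 119, 117 and 115 CPM in the 22Rv1 libraries and 0.284, 0.338 and 0.178 CPM in the LNCaP libraries. The trypsin inhibitor SPINK1 (129 against 0.0893 CPM), the mucin MUC13 (83.1 against 0.0316 CPM), the RNA editing cofactor A1CF (56.4 against 0 CPM) and paraoxonase PON1 (62.4 against 0 CPM) were close to or at 0 in LNCaP. The urea cycle enzyme CPS1 (5.83 against 63.9 CPM) and the trefoil factor TFF3 (0.0572 against 8.41 CPM) were lower in 22Rv1. Genes of several other secreted liver proteins did not reach the 2 CPM filter in either line. APOB was at 0.122 against 0 CPM, FGA at 0 against 0.0316 CPM and APOA1 at 0.19 against 0.27 CPM. AFP was at 1.32 against 0 CPM.

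A total of 396 genes were above 2 CPM in all 3 22Rv1 libraries and had at most 3 counts over the 3 LNCaP libraries together, and 101 genes showed the reverse, Y-linked genes left out. No count at all was found in LNCaP for 211 of the 396 and in 22Rv1 for 44 of the 101. Where the other line had no count, the fold is only bounded, here by setting 3 counts over its libraries. SRRM4 was the highest of the 396, and with 2 counts in LNCaP its ratio was 3415, with an exact Poisson 95% interval of 945 to 28198 that covers counting error only. HGF, the ligand of the receptor tyrosine kinase MET, gave 192, 195 and 203 CPM in 22Rv1 and no count in LNCaP, at least 2200.4-fold higher, and MET itself was at 25.6, 26.5 and 28.1 CPM in the 22Rv1 libraries and 2.18, 1.94 and 1.78 CPM in the LNCaP libraries. CD44, an adhesion receptor used as a stem cell marker, was at 96.0, 103 and 99.8 CPM in the 22Rv1 libraries and 0.189, 0 and 0.0888 CPM in the LNCaP libraries. GJA1, the gap junction protein connexin 43, reached 167, 167 and 177 CPM and the protease inhibitor TIMP1 reached 95.3, 96.4 and 95.7 CPM, each with no count in LNCaP. Others among the highest by CPM were the phospholipase PLA2G3 (147 CPM), the calcium channel subunit CACNA2D1 (108), SERPINB1 (99.9), the synaptic vesicle protein SV2A (93.5) and ALDH7A1 (85.0). Among genes of LNCaP, the chemokine receptor ACKR3 was highest at 0.0813, 0.181 and 0 CPM in the 22Rv1 libraries and 156, 156 and 165 CPM in the LNCaP libraries, a ratio of 1821 with an interval of 623 to 8831 from 3 counts in 22Rv1. Others of these genes were the peroxidase PXDN (110.3 CPM), the phosphodiesterase PDE10A (96.0), NLRP2 (76.6), the histone gene H2AFJ (48.8) and the secreted phospholipase PLA2G2A (37.8). Clustered protocadherins, adhesion proteins whose alternative promoters are chosen cell by cell, differed by cluster. The 15 PCDHA genes with a count summed to 69.0 to 76.1 CPM in 22Rv1 and 0.621 to 1.42 CPM in LNCaP, and 7 of them were among the 396. None was above 2 CPM in all 6 libraries, so the 9 that were tested, all higher in 22Rv1, were tested through that line. The 16 PCDHB genes summed to 119 to 129.5 CPM and 47.5 to 54.8 CPM, with 11 of 13 tested higher by more than 2-fold and 1 lower, and 4 of the 13 above 2 CPM in all 6 libraries. The 21 PCDHG genes summed to 71.9 to 77.7 CPM and 71.6 to 75.9 CPM. Of 13 tested, 3 were higher by that limit, and 6 of the 13 were above 2 CPM in all 6 libraries. The other tested PCDHB and PCDHG genes were tested through 1 line, so these counts are partly set by the filter. Genes of the PCDHA and of the PCDHG cluster share 3' exons, so reads of the common part may have been left out of the counts.

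Among genes above 2 CPM in all 6 libraries, the largest difference was that of PEG10, a retrotransposon-derived imprinted gene linked to neuroendocrine prostate cancer. It was measured at 1288, 1294 and 1309.6 CPM in the 22Rv1 libraries and 3.88, 3.55 and 4.70 CPM in the LNCaP libraries, a log2 difference of 8.32 ± 0.061 (adjusted p = 6.2e-48). PTPRB, a receptor phosphatase, followed at 451, 448 and 445 CPM in the 22Rv1 libraries and 3.88, 3.38 and 4.08 CPM in the LNCaP libraries, and then the cancer-testis gene MAGEA4 (312 against 4.16 CPM), the synaptic organizer CBLN2 (262 against 3.73 CPM), the chaperone clusterin CLU (700.4 against 12.4 CPM) and the growth factor midkine MDK (563 against 13.0 CPM). The neuronal microtubule protein MAP2 (165 against 4.69 CPM) and FGFR3, a fibroblast growth factor receptor (125 against 4.12 CPM), were also within the 15 largest. On the lower side stood SLC30A4, a zinc exporter, at 5.45, 5.60 and 5.61 CPM in the 22Rv1 libraries and 362, 362 and 353 CPM in the LNCaP libraries (log2 difference -6.01 ± 0.058). ASS1, the urea cycle enzyme that makes argininosuccinate, was at 4.15, 3.07 and 3.33 CPM in the 22Rv1 libraries and 186, 174 and 182 CPM in the LNCaP libraries. The laminin chain LAMA3 (8.27 against 296 CPM), the peptidase neprilysin MME (23.7 against 818 CPM), the ceramide synthase CERS4 (4.01 against 133 CPM) and utrophin UTRN (15.7 against 426 CPM) were also among the 15 largest. By difference in CPM, cyclin D1 (CCND1) led the higher genes at 1802, 1840.0 and 1917 CPM in the 22Rv1 libraries and 429, 420.5 and 427 CPM in the LNCaP libraries, with ALDH3A2 (1065 against 203 CPM) and APLN, the peptide ligand apelin (893 against 51.5 CPM), also among the 10 largest. The translation factor EEF2 led the lower genes at 1916 against 3552 CPM, ABHD2 (153 against 1672 CPM) followed, and the matrix protein SPON2 was among the 10 with 0.813, 1.27 and 0.935 CPM in the 22Rv1 libraries and 936, 930.0 and 894 CPM in the LNCaP libraries. ID proteins, which block basic helix-loop-helix factors, were noticed after these lists had been drawn. ID3 (292 against 12.4 CPM), ID2 (169 against 6.05 CPM), ID1 (143 against 2.42 CPM) and ID4 (90.6 against 0.0612 CPM) were all higher in 22Rv1.

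Glycolytic enzymes, which the study follows under CPSF1 knockdown, were on the whole lower in 22Rv1 at baseline. Of 15 enzymes 10 were lower and 4 higher by adjusted p-value, 4 were lower by more than 2-fold, and the median log2 difference was -0.63. PFKP, the platelet form of phosphofructokinase, was measured at 25.2, 25.6 and 25.4 CPM in the 22Rv1 libraries and 285, 292 and 258 CPM in the LNCaP libraries (log2 difference -3.45 ± 0.051). PGK1 (515 ± 15.5 CPM in 22Rv1 against 1157 ± 17.1 CPM in LNCaP), GPI (413 ± 16.0 CPM in 22Rv1 against 898 ± 40.9 CPM in LNCaP) and ALDOC (80.8 against 218 CPM) passed the same limit, and ALDOA (697 against 1287 CPM), ENO1 (843 against 1504 CPM) and PKM (830.4 against 1336 CPM) stayed within it. ENO2, the neuronal enolase, was higher (241, 247 and 237 CPM in the 22Rv1 libraries and 108, 114 and 127 CPM in the LNCaP libraries), and GAPDH did not pass the test (1972 against 2029 CPM, adjusted p = 0.26), although it did without 22Rv1 replicate 3, at a log2 difference of -0.077. LDHA was lower (737 against 1121 CPM) and LDHB higher (771 against 517 CPM), and the lactate transporter SLC16A1 was lower (114 against 339 CPM). Of the pyruvate dehydrogenase kinases, which shut pyruvate out of mitochondria, PDK1 was lower in 22Rv1 and PDK4 higher. PDK1 was read at 26.8, 28.1 and 25.4 CPM in the 22Rv1 libraries and 156, 160.2 and 133 CPM in the LNCaP libraries, and PDK4 at 58.4, 63.5 and 62.4 CPM in 22Rv1 with no count in LNCaP. Of 18 tested genes of the pathway of hypoxia-inducible factor and its targets, 12 were lower and 5 higher by adjusted p-value, and 8 were lower and 2 higher by more than 2-fold. Of the 15 above 2 CPM in all 6 libraries, 7 were lower and 1 higher by that limit. Among the lower genes were BNIP3 (90.3 against 373 CPM), the angiogenic factor VEGFA (107, 99.3 and 93.8 CPM in the 22Rv1 libraries and 294, 301 and 301 CPM in the LNCaP libraries), DDIT4 (57.3 against 295 CPM) and EGLN3 (6.96 against 49.8 CPM). HIF1A, the regulated subunit itself, was at 178 against 223 CPM. The genes higher by more than 2-fold were HIF1AN, which inhibits the factor by hydroxylation (99.3 against 48.8 CPM), and ANGPTL4, an inhibitor of lipoprotein lipase induced by hypoxia and by PPAR receptors, at 45.4, 47.1 and 42.7 CPM in the 22Rv1 libraries and 0.0947, 0.169 and 0 CPM in the LNCaP libraries. None of the 13 mitochondrially encoded genes differed by more than 2-fold, and their median log2 difference was 0.055.

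Of 26 genes of cholesterol and fatty acid synthesis, 18 were higher in 22Rv1 and 8 lower by adjusted p-value, and 8 were higher and 2 lower by more than 2-fold. HMGCS1, the synthase that commits acetyl-CoA to the mevalonate pathway, was at 487, 483 and 522 CPM in the 22Rv1 libraries and 126, 120.3 and 122 CPM in the LNCaP libraries, and MVD (114 against 35.5 CPM), MVK (78.6 against 25.6 CPM), CYP51A1 (46.1 against 12.5 CPM), IDI1 (204 against 69.6 CPM) and SQLE (141 against 65.7 CPM) were higher by more than 2-fold as well. FASN (1442 against 2144 CPM), ACACA (443 against 815 CPM) and their regulator SREBF1 (367 against 600.1 CPM) were lower. The desaturase FADS2 was lowest relative to LNCaP, at 141, 138 and 140.4 CPM in the 22Rv1 libraries and 724, 734 and 729.8 CPM in the LNCaP libraries.

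Proliferation markers were higher in 22Rv1. Of 24 proliferation markers 23 were higher and 1, CDK1, was lower (177 against 215 CPM), with a median log2 difference of 0.75 and 8 members past 2-fold. MCM5 (239 against 82.0 CPM) and MCM7 (809 against 292 CPM), helicase subunits of replication origins, MKI67 (216 against 97.4 CPM) and TOP2A (514 against 243 CPM) were among these 8. Upstream of them, CCND1 was joined by CDK6 (37.8, 36.0 and 31.9 CPM in the 22Rv1 libraries and 4.74, 6.17 and 5.24 CPM in the LNCaP libraries), E2F2 (118 against 15.7 CPM) and CDK2 (289 against 93.1 CPM), and of 21 tested genes of cell cycle entry 13 were higher, 5 lower and 3 not called by adjusted p-value, 9 of them higher and 1 lower by more than 2-fold. Of the 20 above 2 CPM in all 6 libraries, 8 were higher and 1 lower by that limit. The lower gene was MYCL (6.85 against 18.8 CPM), and MYC was at 314 against 395 CPM.

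Mismatch repair genes differed in both directions, with more of them higher in 22Rv1. Of 11 genes, all above 2 CPM in all 6 libraries, 7 were higher and 3 lower by adjusted p-value. By more than 2-fold 3 were higher and 1 lower, and the median log2 difference was 0.61. MSH6, a subunit of a mismatch recognition dimer, was higher in 22Rv1 (137 against 89.8 CPM), while MSH3, which takes its place in another dimer, was lower at 4.72, 5.87 and 5.51 CPM in the 22Rv1 libraries and 29.6, 28.7 and 31.6 CPM in the LNCaP libraries (log2 difference -2.48 ± 0.11). LIG1, the ligase of replication and repair, was higher (192 ± 6.48 CPM in 22Rv1 against 38.0 ± 1.19 CPM in LNCaP), and PMS2 (53.7 against 59.5 CPM) stayed within 2-fold.

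Antigen presentation genes were lower in 22Rv1 on balance, and interferon response genes differed in both directions, with more of them lower. HLA-B was read at 8.94, 8.68 and 10.3 CPM in the 22Rv1 libraries and 93.4, 89.1 and 95.9 CPM in the LNCaP libraries (log2 difference -3.32 ± 0.068) and HLA-C at 40.8 against 199 CPM, and their allelic differences from the reference may affect the counting. HLA-F gave no count in 22Rv1 and 6.54, 6.25 and 6.92 CPM in LNCaP. B2M, the invariant light chain, did not pass the test (175 against 169 CPM, adjusted p = 0.24). NLRC5, the transactivator of class I genes, was at 0.407, 0.362 and 0.312 CPM in the 22Rv1 libraries and 10.7, 11.4 and 9.59 CPM in the LNCaP libraries. In all, 7 of 15 tested genes of class I presentation were lower by more than 2-fold and none higher, and of the 12 above 2 CPM in all 6 libraries 4 were lower. Of 29 tested interferon-stimulated genes 12 were lower and 4 higher by the same measure, with IFI6 (0.244 against 8.53 CPM), GBP2 (0.354 against 8.61 CPM) and IFITM3 (24.1 against 83.0 CPM) lower and ISG15 (74.4 against 23.9 CPM) and PARP14 (55.3 against 5.74 CPM) higher. Of the 18 above 2 CPM in all 6 libraries, 4 were lower and 2 higher. Most of these genes were below 20 CPM in both lines. The interferon list summed to 375 to 376 CPM in 22Rv1 and 403 to 419 CPM in LNCaP. Among signal transducers, STAT6, which acts downstream of interleukin 4, was at 170.0, 176 and 172 CPM in the 22Rv1 libraries and 1.52, 2.03 and 2.04 CPM in the LNCaP libraries, a log2 difference of 6.52 ± 0.079. STAT3 was lower (61.1 ± 1.53 CPM in 22Rv1 against 243 ± 5.07 CPM in LNCaP), as were the receptor IL6R (23.8 against 78.3 CPM) and the feedback inhibitor SOCS2 (2.41 against 22.3 CPM). JAK1 was low in both lines (7.73 against 9.44 CPM).

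HOX genes, which record position along the body axis, differed by cluster. Of 7 tested HOXA genes 6 were higher in 22Rv1 by more than 2-fold, among them HOXA13 (6.75, 7.95 and 7.48 CPM in the 22Rv1 libraries and 0.379, 0 and 0.355 CPM in the LNCaP libraries), HOXA7 (8.86 against 0.482 CPM) and HOXA9 (5.79 against 0.359 CPM), while HOXA10 was lower within 2-fold (8.79 against 11.6 CPM). Only 3 HOXA genes were above 2 CPM in all 6 libraries, of which 2 were higher by that limit, and the other 4 were tested through 22Rv1. Of 8 tested HOXB genes 6 were higher by that limit, led by HOXB8 (7.80 against 0.0296 CPM), HOXB4 (4.23 against 0.0597 CPM) and HOXB7 (12.1 against 0.412 CPM), and the prostate gene HOXB13 at the end of the cluster was not. Of the 4 HOXB genes above 2 CPM in all 6 libraries 2 were higher by that limit, and the other 4 were tested through 22Rv1. Of 7 tested HOXC genes 2 were higher, 1 of them among the 6 above 2 CPM in all 6 libraries, and none of 9 HOXD genes reached the filter. Cancer-testis genes, normally silent outside the germ line, were individual. MAGEA4 and MAGEA1 (137 against 8.29 CPM), SSX3 (53.2 against 0 CPM), CTAG1A (88.7 against 0.203 CPM) and CTAG2 (107 against 0.329 CPM) were higher in 22Rv1, and MAGEA10 (0.176 against 26.8 CPM) and PRAME (38.5 against 139 CPM) were lower. MAGEA3 (113 against 131 CPM) and MAGEA6 (92.6 against 112 CPM) were similar, and reads of these near-identical copies could have been exchanged or discarded.

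Receptors and adaptors of growth factor signalling differed in both directions. Of 16 tested growth factor receptors, 5 were higher in 22Rv1 by more than 2-fold and 3 lower. Of the 12 above 2 CPM in all 6 libraries 2 were higher and 2 lower, where 9.33% and 11.1% of all such genes were. FGFR3, MET, ERBB4 (9.96 against 0.517 CPM) and EGFR (482 ± 8.99 CPM in 22Rv1 against 238 ± 8.96 CPM in LNCaP) were higher in 22Rv1, and ERBB2 (123 ± 4.64 CPM in 22Rv1 against 379 ± 7.05 CPM in LNCaP) and IGF2R (161 against 499 CPM) were lower. Downstream, the insulin receptor substrates IRS2 (136, 147 and 138 CPM in the 22Rv1 libraries and 7.77, 7.94 and 8.08 CPM in the LNCaP libraries) and IRS1 (84.6 against 14.3 CPM) were higher. PIK3CD, the catalytic subunit otherwise typical of leukocytes, was at 0.163, 0.181 and 0.208 CPM in the 22Rv1 libraries and 111, 108 and 108 CPM in the LNCaP libraries, a log2 difference of -9.14 ± 0.13, and PIK3CA was at 41.0 against 21.6 CPM. In the WNT pathway 10 of 29 tested genes were higher by more than 2-fold and 4 lower, and 4 and 1 of the 20 above 2 CPM in all 6 libraries. LGR5, a receptor for R-spondins and a stem cell marker, gave 33.6, 32.3 and 37.8 CPM and the secreted inhibitor DKK1 gave 31.8, 31.6 and 35.9 CPM in 22Rv1, each with no count in LNCaP. LEF1 (20.1 against 2.22 CPM) and RNF43 (88.6 against 29.8 CPM) were higher, the feedback inhibitor AXIN2 did not pass the test (5.67 against 5.62 CPM, adjusted p = 1), and NKD1 (0.0603 against 7.31 CPM) and WNT7B (3.38 against 23.1 CPM) were lower.

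Of 19 tested ETS factors 7 were higher by more than 2-fold and 3 lower, and of the 16 above 2 CPM in all 6 libraries 4 were higher and 3 lower. ETV1, which drives tumours when rearranged, was at 49.2, 42.8 and 46.7 CPM in the 22Rv1 libraries and 317, 301 and 300.3 CPM in the LNCaP libraries (log2 difference -2.73 ± 0.043), and the epithelial factor EHF was lower too (118 against 520.5 CPM). ETV4 (32.9 against 0.0316 CPM) and ETV5 (14.6 against 0.59 CPM), of the same subfamily as ETV1, were higher, and ERG was near 0 in both lines (0.123 against 0.0316 CPM). Integrins were split, 6 of 15 tested higher by more than 2-fold and 4 lower, with ITGA1 (42.7 against 2.57 CPM) and ITGB5 (201 against 54.8 CPM) higher and the laminin receptor chain ITGA6 lower (6.18, 7.59 and 6.86 CPM in the 22Rv1 libraries and 86.3, 82.2 and 83.6 CPM in the LNCaP libraries). Of the 9 above 2 CPM in all 6 libraries, 3 were higher and 2 lower. Surface proteins targeted by imaging or therapy in prostate cancer were mostly lower in 22Rv1, 9 of 14 by more than 2-fold and 6 of the 9 above 2 CPM in all 6 libraries. FOLH1, which encodes prostate-specific membrane antigen, was at 239, 249 and 258 CPM in the 22Rv1 libraries and 989, 956 and 993 CPM in the LNCaP libraries (log2 difference -1.98 ± 0.035). STEAP1 (149 against 301 CPM), STEAP2 (316 against 733 CPM) and PSCA (0.23 against 7.71 CPM) were lower too. The tissue factor gene F3 (30.5 against 0 CPM) and the somatostatin receptor SSTR1 (29.4 against 0.322 CPM) were the 2 targets that were higher by that limit.

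Glutathione transferases and targets of NRF2 were lower on balance, 19 of 25 tested members by adjusted p-value, of which 8 by more than 2-fold. Of the 20 above 2 CPM in all 6 libraries, 5 were lower and 2 higher by that limit. NQO1, a quinone reductase, was at 31.8, 32.4 and 31.4 CPM in the 22Rv1 libraries and 145, 139 and 146 CPM in the LNCaP libraries, and the cystine transporter SLC7A11 (93.2 against 247 CPM), GSTA1 (1.04 against 25.2 CPM) and GSTM3 (10.8 against 82.1 CPM) were lower. GSTM4 (34.9 against 0.0592 CPM), GSTO2 (68.9 against 4.71 CPM) and GCLC (164 against 52.5 CPM) were higher. GSTP1, which is silenced by methylation in most prostate cancers, was near 0 in both lines (0.0888 against 0.0296 CPM). Cleavage and polyadenylation factors were close to level. The knockdown target CPSF1 was measured at 186, 179 and 179 CPM in the 22Rv1 libraries and 152, 151 and 154 CPM in the LNCaP libraries, a log2 difference of 0.26 ± 0.035, and of 20 factors only CPSF4 (123 ± 2.92 CPM in 22Rv1 against 53.9 ± 1.15 CPM in LNCaP) and the poly(A) polymerase PAPOLG (30.6 ± 3.22 CPM in 22Rv1 against 13.9 ± 0.223 CPM in LNCaP) passed 2-fold, both higher in 22Rv1.

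Differences were also uneven along the genome. Among genes above 2 CPM in all 6 libraries, the median log2 difference was 0.41 on chromosome 12 (561 genes), 0.39 on chromosome 7 (499 genes) and 0.29 on chromosome 13 (178 genes), and lowest on chromosome 21 at -0.33 (108 genes), with a median over all such genes of -0.026. Medians of single 22Rv1 libraries against the LNCaP mean spanned 0.40 to 0.42 on chromosome 12 and 0.37 to 0.39 on chromosome 7. On chromosome 12, 74.5% of genes were on the higher side, and on chromosome 21, 28.7%. In windows of 10 Mb with at least 20 such genes, 18 of 205 medians lay beyond 0.5 in size. All 27 genes in the last window of chromosome 22, from 50000001 onward in hg19, were higher, with a median of 0.75. On chromosome 2, the window chr2:60000001-70000000 had a median of 0.70 over 37 genes, and chr2:120000001-130000000 had -1.02, with 20 of 21 genes lower. Copy number was not measured in these files, and its part in these values was not tested.

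**Figure D2:**
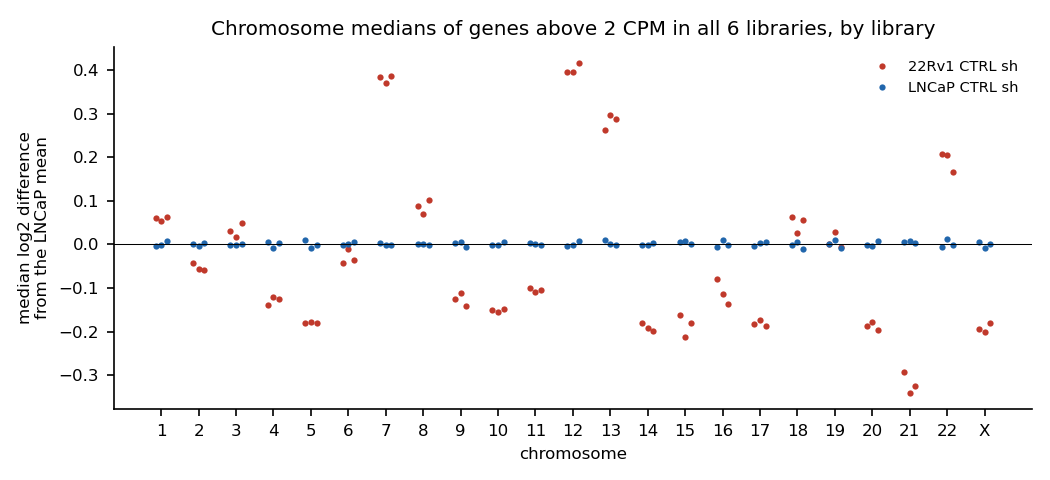
Median log2 difference from the LNCaP mean over genes above 2 CPM in all 6 libraries (vertical), by chromosome (horizontal), with 22Rv1 libraries in red and LNCaP libraries in blue. The 3 libraries of a line lie close together, and chromosomes 7, 12 and 13 are high and chromosome 21 low in 22Rv1.

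The line difference was repeated in libraries that the comparison did not use. Of the 2081 genes higher by more than 2-fold, 1964 (94.4%) passed an adjusted p-value of 0.05 in the same direction between the CPSF1 sh2 libraries, and of the 1756 lower genes 1602 (91.2%) did. Between the CPSF1 sh1 libraries these numbers were 1975 (94.9%) and 1596 (90.9%). Most genes passed that p-value there whatever their difference in the CTRL sh libraries. With sh2, 5482 of all 12714 tested genes were higher in 22Rv1 and 5418 lower, and with sh1, 5195 and 4948 of 12621. The LNCaP CPSF1 sh1 replicate 3 library stood apart. The 396 genes found in 22Rv1 only summed to 482.5 CPM there, 7.46% of their level in the 22Rv1 CPSF1 sh1 libraries, and 379 of them had a count. In the other 5 LNCaP knockdown libraries they summed to 0.904 to 1.20% of the 22Rv1 level, and in the LNCaP CTRL sh libraries, by which they were chosen, to 0.107 to 0.155%. Without this library 1979 and 1599 of the calls were repeated between the CPSF1 sh1 libraries. All levels and differences in the earlier paragraphs come from CTRL sh libraries and do not use this library.

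**Figure D3:**
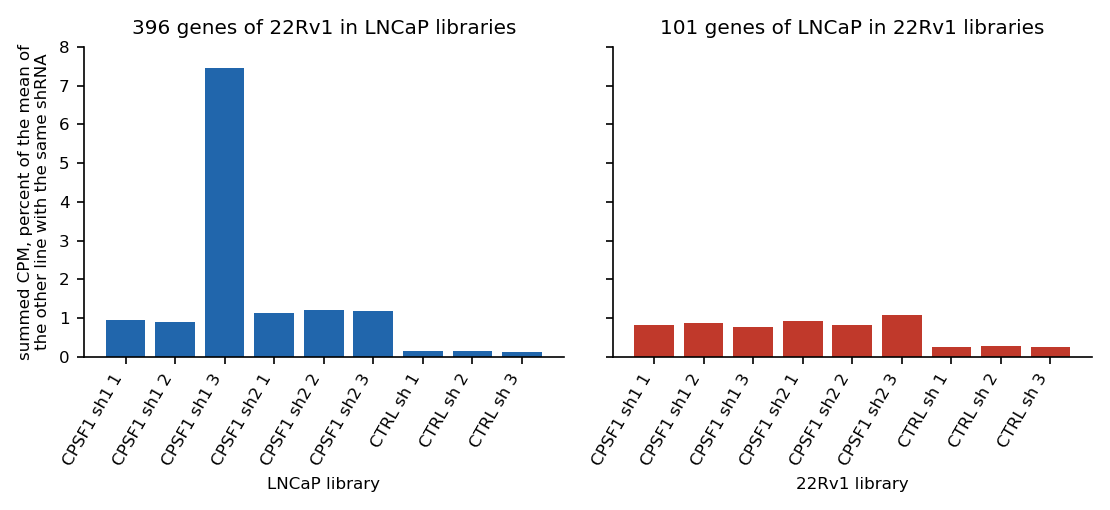
Summed CPM of genes at the floor in the CTRL sh libraries of 1 line, as a percent of the mean of the line that expresses them with the same shRNA (vertical), in each library (horizontal). LNCaP CPSF1 sh1 replicate 3 reaches 7.46% on the left, while all other bars in both panels lie between 0.107 and 1.20%.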

How the data were processed

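The authors prepared libraries from total RNA with the TruSeq Stranded mRNA kit, aligned paired-end reads to hg19 (GRCh37) with HISAT2 2.1.0 and counted them by gene with Subread featureCounts in reverse-stranded mode on an Ensembl annotation. The submitters' processing notes name Subread 2.0.3, and the study's methods another version. The deposited table holds raw counts for 20268 gene symbols without normalization. All 27 count columns matched a sample by name, and 6 were used.

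The 3 22Rv1 and 3 LNCaP CTRL sh libraries were fitted in R 4.3.3 with edgeR 4.0.16, using TMM scaling and the quasi-likelihood test with legacy = TRUE, the form of the older edgeR that the study used. Genes above 2 CPM in all 3 libraries of at least 1 line were kept, since the study's filter of every library would remove genes of 1 line. P-values were adjusted over all tested genes by the Benjamini-Hochberg method at 0.05, and a 2-fold call also required a log2 difference beyond 1. Standard errors are the log2 difference divided by the root of F. The fit was tested on simulated data. Genes at the floor were above 2 CPM in all 3 libraries of 1 line and had at most 3 counts over those of the other. Replicate libraries differed beyond counting noise, with a chi-square per degree of freedom of 1.39 to 1.87.

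Gene lists were described by counts and medians, without set tests. The genes named are members of these lists, and, in each direction, the 15 largest called differences with separate groups among genes above 2 CPM in all 6 libraries, the 15 genes with the highest CPM among those at the floor of the other line, and the 10 largest CPM differences. Y-linked genes, XIST and some other list members are not reported here. The comparison and the lists were chosen with earlier results of these data known, and 2 lists (liver and intestine genes, ID proteins) after the differences themselves were seen. Promoters came from RefSeq (GRCh38.p14) and matched 82.2% of tested genes by current or older symbol. Genes with near-identical copies may have gained or lost reads in counting.

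Alternatives were edgeR's newer quasi-likelihood test, DESeq2 1.42.0, RLE size factors, library size alone, 3 other filters, a block for the replicate number, a fit of all 27 libraries, each library left out, the CPSF1 sh1 and sh2 libraries, glmTreat and other floors.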

Additional observations from a re-analysis of the deposited data

Results flagged for a closer look

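One library outside the comparison held a signal above the level of the controls. In LNCaP CPSF1 sh1 replicate 3, the 396 genes at the floor in the LNCaP CTRL sh libraries summed to 7.46% of their level in the 22Rv1 CPSF1 sh1 libraries, and the median over these genes was 7.06%. ALB, for example, had 471 counts there, 8 to 16 counts in the other 5 LNCaP knockdown libraries and 1 to 3 counts in the LNCaP CTRL sh libraries. The cause was not tested.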

How the results depend on the processing

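The 5522 higher and 5322 lower calls stayed within 1.5 times under every alternative that was run. The 2-fold counts moved further with the filter, which adds or removes genes of 1 line, to 1042 higher and 1162 lower when only genes above 2 CPM in all 6 libraries were fitted and to 3126 higher when every gene with a count was. Of the counts at the floor, 396 became 211 and 101 became 44 when no count was allowed, and 101 became 165 with a floor of 10 counts. Between the CPSF1 sh1 libraries 94 genes were at the floor in LNCaP, and 411 without LNCaP CPSF1 sh1 replicate 3. Leaving out each CTRL sh library in turn gave 5400 to 5498 higher and 5229 to 5281 lower genes, 2093 to 2122 and 1738 to 1792 past 2-fold, and 404 to 456 and 103 to 128 at the floor in LNCaP and in 22Rv1.

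Among the genes named, no direction of a called gene turned within the CTRL sh libraries. Calls were lost there for KRT8, JAK1 and PMS2. JAK1 lost its call without 22Rv1 replicate 1 or 2 or LNCaP replicate 2 or 3, and KRT8 without 22Rv1 replicate 1 or 2 or LNCaP replicate 3. Directions that turned did so between knockdown libraries, where the cause was not tested. With CPSF1 sh1, with sh2, and with sh1 without LNCaP CPSF1 sh1 replicate 3, the log2 differences were -0.37, -0.30 and -0.34 for B2M, 0.42, 0.33 and 0.42 for FOXA1, and -0.47, -0.36 and -0.50 for KRT8. With sh2 they were 0.068 for JAK1, 0.018 for MYC, 0.14 for PMS2 and 0.25 for UGT2B15, and PMS2 was 0.029 with sh1 without that library. Of the list medians given, these moved by more than 1.5 times or changed sign with sh1 and with sh2. The median of the androgen-induced genes was -0.93 and -1.38, and that of the UGT enzymes -0.84 and 0.049. With sh1 it was -0.37 for glycolytic enzymes, -0.031 for luminal markers and 4.41 for liver and intestine genes, and with sh2 0.49 for proliferation markers. The mitochondrially encoded genes were at -0.11 and 0.088. With every gene that had a count, the UGT median was -0.99 and that of the liver and intestine genes 3.498, which fell to 1.14 with genes above 2 CPM in all 6 libraries.

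Replicate numbers were shared by the lines but did not pair the libraries. The correlations of same-numbered deviations were -0.018, 0.0010 and 0.026, and not every library correlated best with its own number. With a replicate block there were 5502 higher and 5324 lower genes, 2084 and 1756 of them past 2-fold. The 3 libraries per line and the depth limit what can be said of genes below 2 CPM.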
